A study of Mus musculus with 8 samples.

Results

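The profile described here is that of the CCE embryonic stem cell line in the libraries labelled eIF4A3 knockdown. Its members are the 2 libraries that the titles number replicate 1 and replicate 2, out of 8 libraries in the series. CCE is a mouse embryonic stem cell line of the 129/Sv strain. The other 6 libraries come from J1, an embryonic stem cell line of the 129S4/SvJae strain, in 3 groups of 2: a control for both knockdown and expression, eIF4A3 knockdown with control expression, and eIF4A3 knockdown with Ccnb1 expression. All cells were labelled as feeder-free and grown on gelatin in serum with leukemia inhibitory factor. The protocol, given once for all samples, describes lipid transfection and drug selection, lentiviral infection, 2.5 days in 1 µg/mL puromycin and collection on day 4.5 after infection. The labels do not say which vectors the CCE cells received, whether a line was clonal, or whether the replicates were separate cultures, so the spread between them may be technical. A CCE control was not analysed here. Levels and ranks within each library are therefore given without any test, and no value below measures an effect of the knockdown.

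The protein eIF4A3 belongs to the DEAD-box helicases and clamps the exon junction complex onto spliced messenger RNA upstream of exon junctions. Its core partners are MAGOH, RBM8A and CASC3, and the complex takes part in export, translation and nonsense-mediated decay of the RNA. Embryonic stem cells keep the ability to form all embryonic lineages through a network built on OCT4, SOX2 and NANOG. Leukemia inhibitory factor sustains that network through the receptor pair LIFR and gp130 and the transcription factor STAT3.

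Sequences near the start sites of members are shown first, because they help to follow 3 of the gene groups below. They come from RefSeq promoter windows on GRCm38.p6, 250 bases before to 50 after each annotated start, and are written 5′ to 3′ on the strand of the gene. Cdkn1a, the cell cycle inhibitor p21, has letters in a window that match the core of a p53 response element, 2 CATG given in capitals. This window was picked because it holds the match, and a gene may have windows at other annotated starts.
Cdkn1a, chr17:29090911-29090964, plus strand: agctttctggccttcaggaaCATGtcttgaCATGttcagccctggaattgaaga
The spaced motif CATGNNNNNNCATG, which reads alike on both strands, was in 1 of the 32 p53 program genes with a window and in 0.833% of all 27025 genes with a window. The window covers a small part of the regulatory sequence of a gene. The Zscan4 genes, which mark a rare state of embryonic stem cells resembling the 2-cell embryo, were among the genes that differed between the replicates. Their windows are shown because they are near copies of each other, with TATAAA in capitals.
Zscan4c, chr7:11005631-11005720, plus strand: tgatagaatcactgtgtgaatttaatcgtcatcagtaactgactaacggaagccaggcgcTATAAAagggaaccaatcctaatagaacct
Zscan4d, chr7:11166184-11166273, minus strand: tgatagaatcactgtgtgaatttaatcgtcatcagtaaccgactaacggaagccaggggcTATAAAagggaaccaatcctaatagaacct
Zscan4f, chr7:11397824-11397913, plus strand: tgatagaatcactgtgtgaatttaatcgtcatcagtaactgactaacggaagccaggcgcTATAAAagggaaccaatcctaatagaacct
Over these 90 bases Zscan4c and Zscan4f were identical, and each differed from Zscan4d at 2 bases. TATAAA on either strand was in 6 of the 10 genes of the 2-cell-like list with a window, and in 15.7% of all genes. Ribosomal protein genes had the highest median rank of the 6 programs below. The 2 highest by CPM that hold the run counted here are shown for their runs of C and T near the annotated start.
Rpl13a, chr7:45128726-45128755, minus strand: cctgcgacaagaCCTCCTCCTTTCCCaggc
Rplp0, chr5:115559457-115559486, plus strand: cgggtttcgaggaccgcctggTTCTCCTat
The capitals mark runs of 7 or more pyrimidines, searched on the strand of the gene from 5 bases before to 20 bases after the annotated start. A marked run need not begin at the start, and in both genes shown it begins after it. Such a run was in 29 of 58 ribosomal protein genes with a window and in 15.8% of all genes. These matches describe letters in the windows and show no binding or use of a site.

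The CCE libraries held 23966825 and 25574740 reads assigned to genes, against 3596615 to 8340023 in J1 libraries. Levels are in CPM, the count of a gene scaled by the total gene count of its library. A gene without any count may still have a level as high as 0.125 CPM in replicate 1 and 0.117 CPM in replicate 2, for counting error only. In the shallower J1 libraries this limit is 0.360 to 0.834 CPM, so a J1 value of 0 is less firm. The files of the 2 lines were not counted alike. Reads outside any gene made up 48.5% and 49.5% of the reads in the CCE files and 11.9% to 13.9% in the J1 files, and processed pseudogenes took 0.23% and 0.22% of gene counts against 7.20% to 9.10%. The shares of all reads have unlike bases. In the CCE files unaligned reads and reads of low alignment quality were 0%, and reads without a unique alignment 9.71% and 10.03%. In the J1 files these were 15.65% to 45.2%, 20.65% to 33.7% and 0%. Mitochondrial genes took 0.67% and 0.72% in CCE and 3.07% to 4.02% in J1. For 43 genes that lie at least 80% within exons of a gene on the other strand, summed reads per base were 1.18 and 1.26 times those of their partners in CCE, and 0.104 to 0.231 times in J1. The share of unaligned reads was 40.8% and 45.2% in the J1 libraries labelled knockdown without Ccnb1, above the 15.7% to 15.9% of the other J1 libraries. Line, strain, read layout and counting cannot be told apart between CCE and J1, so J1 values are set beside CCE values without a test.

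**Figure D1:**
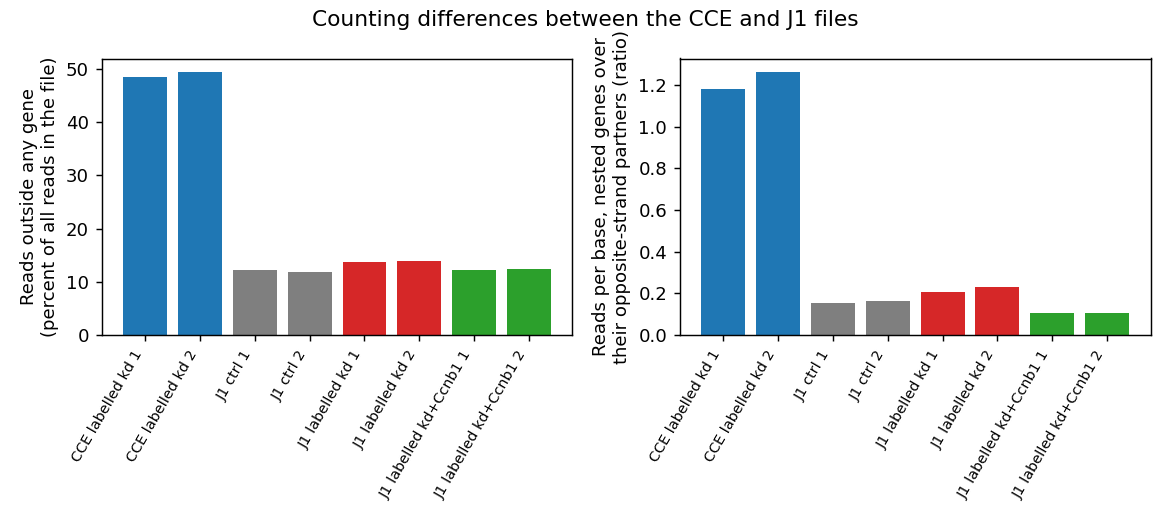
Bars give, for each of the 8 libraries, the percent of all reads in the file that fell outside any gene (left) and the ratio of summed reads per base of 43 nested genes to that of their partners on the other strand (right). Blue bars are CCE, grey J1 control, red J1 labelled knockdown and green J1 labelled knockdown with Ccnb1, and both CCE libraries (48.5% and 49.5%, 1.18 and 1.26) stand above all J1 libraries on both measures. The base of the left measure includes unaligned reads and reads of low alignment quality, which were 0% of the CCE files only.

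The targeted gene ranked a little under the median of its complex. Eif4a3 (ENSMUSG00000025580) stood at 48.8 and 53.9 CPM in CCE replicates 1 and 2. The J1 controls held 73.5 and 83.7 CPM, the J1 libraries labelled knockdown 75.7 and 37.5 CPM, and those labelled Ccnb1 47.3 and 53.5 CPM. The value of 75.7 CPM, in replicate 1 of the libraries labelled knockdown, lies between the controls, so the targeted gene goes against the label there. The CCE values lie under both J1 controls and within the range of the other J1 libraries, and without a CCE control they do not check the knockdown label. Ranked by counts per kilobase of exon among the 32621 genes with an annotated length, Eif4a3 was at percentiles 91.8 and 92.6. Eif4a3 has 1 near-identical processed copy, so reads may be split between copies. The paralogs Eif4a1 and Eif4a2, which act in translation initiation, stood at 1194 and 1257 CPM and at 2017 and 1487 CPM.

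The rest of the exon junction complex was expressed in both libraries, with all 13 listed genes at 1 CPM or more. Over all 37311 genes, 14021 reached that level in both libraries (37.6%). Among the core partners, Magoh stood at 78.7 and 84.4 CPM (percentiles 98.8 and 98.9), Rbm8a at 192 and 203 CPM (97.5 and 97.7) and Casc3 at 128 and 132 CPM (93.7 and 94.0). Magohb, a paralog of Magoh, was the lowest at 5.76 and 4.58 CPM. All 14 listed decay factors also reached 1 CPM in both libraries, among them Dhx34, a helicase gene, at 18.5 and 15.6 CPM. The central decay helicase gene Upf1 stood at 201 and 182 CPM and its partner Upf2 at 220 and 211 CPM. No gene of either list differed between the replicates by more than 1.5-fold. Among 23 listed transcripts that nonsense-mediated decay limits or stress induces, Ddit3 stood at 249 and 160 CPM and Atf4, whose protein drives Ddit3, at 704 and 592 CPM. The J1 values of Ddit3 were 12.9 and 19.1 CPM for control, 684 and 491 CPM for labelled knockdown, and 32.5 and 29.0 CPM in those labelled Ccnb1, so both CCE values lie between those of the labelled knockdown and the other 4 libraries.

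Ranks set the 6 programs apart. The median percentile of members in replicates 1 and 2 was 99.7 and 99.7 for 77 ribosomal protein genes, 96.2 and 96.1 for 50 pluripotency genes, and 96.2 and 95.8 for 40 genes of the p53 program. It was 92.2 and 92.3 for 60 cell cycle genes, 81.3 and 81.7 for 46 matrix genes, and 58.5 and 62.2 for 47 lineage genes. The lineage median over both libraries, 60.4, was 42.5 when only protein-coding genes were ranked and 26.8 when only genes with 10 counts or more in both CCE libraries were. Both percentiles were 90 or higher for 77 ribosomal, 35 pluripotency, 28 p53, 34 cell cycle, 17 matrix and 2 lineage genes. Over all genes with a length, 9.53% were at percentile 90 or higher in both libraries. At least 1 CPM in both was reached by all ribosomal, p53 and cell cycle genes, by 49 pluripotency genes, 41 matrix genes and 28 lineage genes. A bulk library cannot tell a lower level in every cell from a smaller number of expressing cells.

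**Figure D2:**
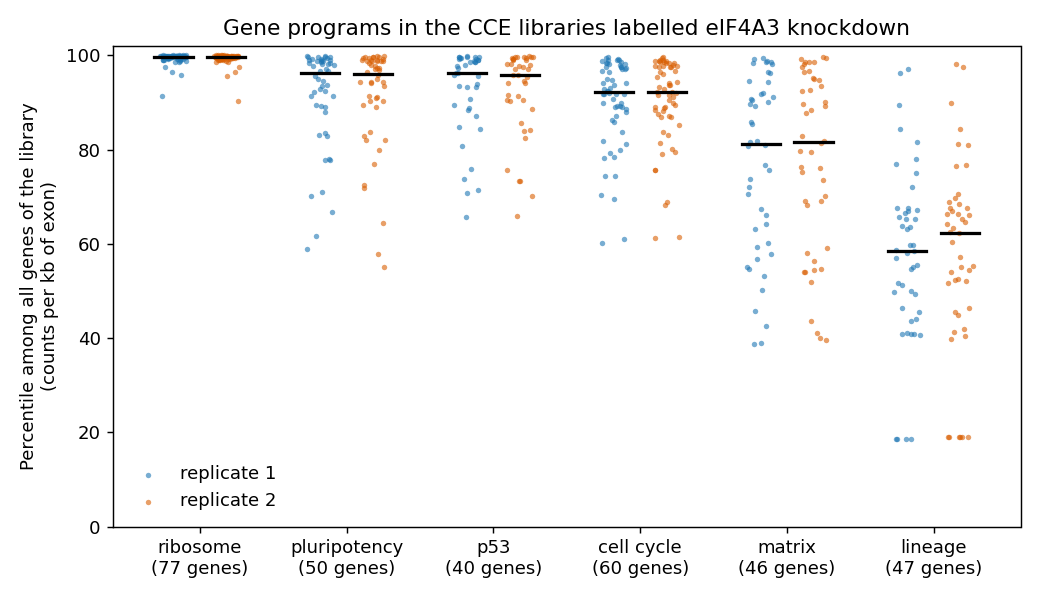
Each point is a gene at its percentile among all genes with a length, ranked by counts per kilobase of exon, in CCE replicate 1 (blue) or 2 (orange), and black lines are list medians. Ribosomal protein genes cluster at the top (median 99.7) and lineage genes spread downward from 2 keratin genes (medians 58.5 and 62.2), with genes without a count at the bottom.

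The pluripotency network was expressed across nearly all of its parts. By level per kilobase the highest members were Dppa5a, a stem cell marker, at 889 and 814 CPM per kb, Pou5f1, which encodes OCT4, at 385 and 414 CPM per kb, and Spp1, which encodes osteopontin, at 306 and 305 CPM per kb. Dppa5a has 6 near-identical processed copies. Pou5f1 stood at 866 and 930 CPM (898 ± 45.7, SD, n = 2), Sox2 at 490 and 551 CPM (520 ± 43.4, SD, n = 2) and Nanog at 189 and 252 CPM (221 ± 44.3, SD, n = 2). All of these were at percentile 98.4 or higher, so the core factors rank among the most expressed genes of both libraries. Esrrb and Zfp42, transcription factor genes of the naive state, stood at 869 and 881 CPM and at 446 and 534 CPM. The Krüppel-like factor gene Klf4 stood at 203 and 333 CPM, and Klf2 at 141 and 103 CPM, so the 2 related genes were higher in opposite libraries. Of the leukemia inhibitory factor pathway, the receptor genes Lifr and Il6st stood at 61.2 and 73.9 CPM and at 101 and 93.7 CPM. Stat3 stood at 209 and 185 CPM and its feedback inhibitor gene Socs3 at 229 and 193 CPM. The lowest members were Dppa3, at 0.501 and 0.274 CPM, Lefty2 and Lefty1, antagonists of Nodal signalling, at 2.17 and 1.13 CPM and 4.42 and 2.07 CPM, and Otx2, a gene of the primed state, at 7.14 and 12.98 CPM.

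Beside J1, pluripotency members lay on both sides. Of the 50 genes, 8 had both CCE percentiles above all 6 J1 libraries and 11 below. Over the 14891 genes with a mean of 1 CPM or more over the 8 libraries, 25.9% were above and 16.1% below. Without genes that have a near-identical processed copy, 5 of 43 were above and 10 below, against 24.6% and 12.9% of 11775 protein-coding genes. Compared by CPM in place of percentile, 3 of the 50 were above and 17 below, against 21.6% and 17.7% of the 14891 genes. Farthest above were Stat3, at 132 and 146 CPM in J1 control, Dnmt3l, the cofactor of de novo DNA methylation, at 350 and 358 CPM in CCE and 140 to 276 CPM in J1, and Nr0b1. Farthest below were Tcl1, a coactivator gene of AKT, at 10.6 and 9.58 CPM in CCE and 33.4 to 87.3 CPM in J1, Alpl, the alkaline phosphatase of stem cells, at 39.6 and 37.2 CPM against 133 to 269 CPM, and Tet2, a DNA demethylation enzyme gene, at 159 and 144 CPM against 308 to 874 CPM. Utf1, a chromatin factor gene of stem cells, stood at 218 and 242 CPM in CCE and 346 to 1447 CPM in J1. Pou5f1 stood at 1847 and 1879 CPM in J1 control and 935 to 1080 CPM in the 4 libraries labelled knockdown, so CCE lay just under the latter. Sox2 stood at 368 and 423 CPM in labelled knockdown and 973 to 1157 CPM in the other J1 libraries, with CCE between. Nanog was lower in both CCE libraries than in any J1 library, where the range was 277 to 953 CPM, while its percentile rank was not outside the J1 range.

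Genes of the p53 program had median ranks close to those of pluripotency genes. This program holds Trp53, which encodes the tumour suppressor p53, its regulators, and genes that p53 activates in arrest, repair and cell death. Trp53 stood at 445 and 469 CPM, and Mdm2, the ubiquitin ligase that p53 induces and that degrades p53, at 999 and 904 CPM (952 ± 66.8, SD, n = 2). Among arrest genes, Cdkn1a stood at 333 and 229 CPM (281 ± 73.3, SD, n = 2), Ccng1, which encodes cyclin G1, at 836 and 1063 CPM, and Btg2 at 248 and 212 CPM. Trp53inp1, which encodes a cofactor of p53 in cell death and autophagy, was the highest of the program in CPM, at 1658 and 1494. Per kilobase the leaders were Phlda3, an inhibitor gene of AKT signalling, at 415 and 379 CPM per kb, Gtse1, at 294 and 260, and Rps27l, at 277 and 271. Among cell death genes, Bax stood at 440 and 416 CPM, Bbc3 (PUMA) at 151 and 147 CPM, Pmaip1 (NOXA) at 109 and 114 CPM and Fas at 5.72 and 5.24 CPM. The lowest were Rrm2b, Fas and Ddb2, at percentiles between 65.65 and 73.35, while another death receptor gene, Tnfrsf10b, stood at 167.5 and 125.0 CPM.

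Most p53 program genes ranked above every J1 library: 26 of 40 above and 3 below, and 23 of 36 above and 3 below without genes with processed copies. By CPM 22 of 40 were above and 3 below, and the shares over all genes are those given for pluripotency. Plk2, a kinase gene induced by p53, stood at 719 and 628 CPM in CCE, 37.8 and 44.0 CPM in J1 control, 222 and 230 CPM in labelled knockdown, and 112 and 104 CPM in those labelled Ccnb1. Perp, which encodes a membrane protein of cell adhesion and death, stood at 296 and 336 CPM in CCE, 38.0 and 36.6 CPM in J1 control, and 59.1 to 80.5 CPM in the 4 other J1 libraries. For Cdkn1a, the J1 controls held 37.8 and 39.2 CPM, the libraries labelled knockdown 197 and 169 CPM, and those labelled Ccnb1 96.6 and 108 CPM. For these 3 genes the CCE libraries held the highest values of the series. Mdm2 reached 977 and 1038 CPM in J1 labelled knockdown, so its CCE level in CPM lay within the J1 range. Apaf1, of the apoptosome, and Xpc, of nucleotide excision repair, were the others farthest above. The 3 below were Ddb2, at 8.05 and 9.93 CPM in CCE and 18.6 to 39.2 CPM in J1, Sesn1 and Pidd1. Whether these ranks move with the line, the labelled knockdown or the counting was not tested.

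**Figure D3:**
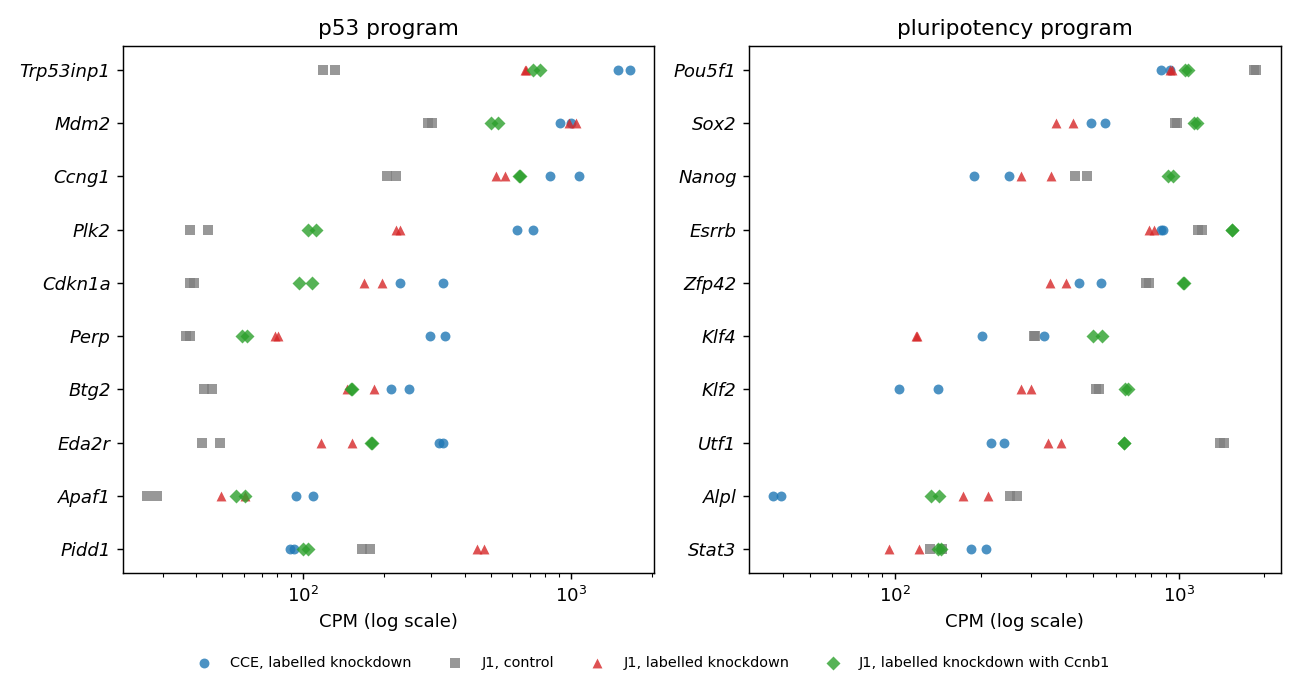
Points give CPM on a log axis in all 8 libraries for 10 p53 program genes (left) and 10 pluripotency genes (right), picked for display with their values known. Trp53inp1, Plk2, Cdkn1a and Perp are among the p53 genes highest in CCE (blue circles), and Mdm2 overlaps J1 labelled knockdown (red triangles). Of the pluripotency genes, Alpl, Klf2, Utf1, Nanog and Pou5f1 are lowest in CCE and Stat3 is highest.

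Lineage genes were mostly low, with 2 keratin genes as the exception. Krt8 and Krt18, the keratin pair of simple epithelia and trophectoderm, stood at 87.1 and 117 CPM and at 77.7 and 110 CPM. In J1 they stood at 1.22 to 11.2 CPM and 3.14 to 15.0 CPM, so the 2 CCE libraries were far above all 6, and each gene has 1 processed copy. The next by level per kilobase was Tubb3, a neuronal tubulin gene, at 33.8 and 34.7 CPM. Among trophectoderm regulators, Tfap2c stood at 39.1 and 38.9 CPM, Tead4 at 29.1 and 28.2 CPM, Gata3 at 6.89 and 7.20 CPM and Cdx2 at 3.05 and 3.44 CPM. Elf5, Hsd3b6 and Prl3d1 had no count in either library. Of endoderm regulators, Gata6 stood at 28.3 and 33.2 CPM and Gata4 at 22.7 and 30.3 CPM, while Sox17 stood at 6.47 and 9.78 CPM. The differentiated products Afp and Ttr had at most 0.125 CPM, and Hnf4a stood at 0.709 and 1.02 CPM. Gata6 stood at 1.92 and 2.04 CPM in J1 control, 2.96 and 13.35 CPM in J1 labelled knockdown, and 17.4 and 17.2 CPM in the J1 libraries labelled Ccnb1. The labelled knockdown libraries thus span the gap between the other 2 groups. Of mesoderm, T, which encodes brachyury, stood at 0.459 and 0.469 CPM and Mixl1 at 0.376 and 0.587 CPM, and Eomes at 7.30 and 9.89 CPM. Of neuroectoderm, Nes stood at 33.9 and 32.3 CPM and Pax6 at 16.6 and 15.7 CPM, while Neurog2 and Olig2 stayed at or under 0.209 CPM. Sox1 was not matched in the files. Median percentiles were 54.7 and 52.1 for neuroectoderm, 53.2 and 54.8 for mesoderm, 60.6 and 64.1 for endoderm and 64.5 and 66.4 for trophectoderm. Of 30 lineage genes compared with J1, 11 ranked above all J1 libraries and none below, against 25.9% and 16.1% over all genes. The filter on the mean of 8 libraries admits genes through their CCE level alone, and these could only fall above. With the mean taken over the J1 libraries alone, 10 of 29 were above and none below, against 23.6% and 16.9% of 14755 genes. A gene with CCE counts but none in some J1 library could not fall below all 6. Of the 47 lineage genes, 29 and 25 had no count in the 2 J1 libraries labelled knockdown. For such genes the lack of any below was fixed in advance. By CPM 8 of the 30 were above and 1 below, against 21.6% and 17.7%.

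Matrix genes ranged from collagen-processing and basement membrane genes at high levels to fibrillar collagens at low ones. The highest per kilobase were P4hb, a prolyl hydroxylase subunit gene, at 136 and 228 CPM per kb, Sparc, at 169 and 180, and Serpinh1, a collagen chaperone gene, at 101 and 132. Fn1, which encodes fibronectin, stood at 1055 and 1080 CPM, Sparc, a collagen-binding glycoprotein gene, at 642 and 683 CPM, and the laminin gamma 1 gene Lamc1 at 738 and 786 CPM. Lama1 and Lamb1, the alpha and beta chains that join it in laminin-111, stood at 196 and 242 CPM and at 116 and 182 CPM. The nidogen genes Nid1 and Nid2 stood at 330 and 336 CPM and at 424 and 455 CPM. The chains of basement membrane collagen, Col4a1 and Col4a2, stood at 143 and 355 CPM and at 141 and 243 CPM. Fibrillar collagens were far lower per kilobase: Col1a1 at 2.67 and 2.18 CPM per kb and Col3a1 at 0.170 and 0.263 CPM per kb, against 19.2 and 47.6 CPM per kb for Col4a1. In CPM, Serpinh1 stood at 247 and 322 CPM. Lum, Postn and Vtn were at or under 0.235 CPM in both libraries. Of 40 matrix genes compared with J1, 14 ranked above all J1 libraries and 2 below, against 25.9% and 16.1% over all genes. The same counts came from CPM, against 21.6% and 17.7%. With the mean taken over the J1 libraries alone, 13 of 37 were above and 2 below, against 23.6% and 16.9%. In the J1 libraries labelled knockdown 14 and 11 of the 46 matrix genes had no count, and such genes with CCE counts could not fall below. Farthest above was Thbs1, which encodes thrombospondin 1, at 143 and 115 CPM in CCE and 0 to 10.01 CPM in J1. The 2 below were Agrn, a heparan sulfate proteoglycan gene, at 74.9 and 77.3 CPM in CCE and 297 to 463 CPM in J1, and Itga5.

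Some markers of fibroblasts and feeder cells were also high in CCE. Tagln and Acta2, genes of the contractile actin system, stood at 130 and 333 CPM and at 133 and 213 CPM in CCE. In J1, Tagln stood at 3.12 to 19.6 CPM and Acta2 at 0 to 2.04 CPM, and 62.4% of the exonic bases of Tagln overlap a gene on the other strand. Vim, which encodes vimentin, stood at 591 and 401 CPM. The 16 listed markers summed to 940 and 1025 CPM in CCE and 152 to 214 CPM in J1, with 9 of 16 at 1 CPM or more in both CCE libraries. Of the 9 markers compared with J1, 6 ranked above all J1 libraries and 1 below, against 25.9% and 16.1% over all genes, and 4 of 7 and 1 with the mean taken over the J1 libraries alone, against 23.6% and 16.9%. In the J1 libraries labelled knockdown 10 and 10 of the 16 markers had no count, and such genes with CCE counts could not fall below. Col1a2 stood at 8.26 and 6.65 CPM, against 0 to 0.341 CPM in J1. Other members had lower levels in CCE than Tagln, Acta2 and Vim: Pdgfrb at 9.43 and 7.27 CPM, Thy1 at 1.09 and 0.547 CPM, and Dcn, Lum, Postn and Prrx1 at most 0.501 CPM. The part of other cells in the matrix levels was not tested.

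Ribosomal protein genes had the highest median rank of the 6 programs. They took 5.57% and 5.21% of all gene counts, and all 77 were at percentile 90 or higher in both libraries. Rpl13a and Rpl4, of the large subunit, stood at 2762 and 2328 CPM and at 2421 and 2242 CPM. Rps3 and Rps2, of the small subunit, stood at 2343 and 2202 CPM and at 2163 and 2282 CPM. The highest per kilobase were Rplp1, of the stalk, Rps2 and Rpl13a, at 1707 and 1669, 1182 and 1247, and 1307 and 1101 CPM per kb. No ribosomal gene differed by more than 1.5-fold between replicates, but 68 of 77 were lower in replicate 2, with a median ratio of 0.932. Of the 77, 73 ranked above all J1 libraries and none below, against 25.9% and 16.1% over all genes, and 65 have near-identical processed copies. All 12 without such a copy ranked above J1 as well. Matches under 300 bases were not counted, so short copies of these 12 may remain. By CPM, 69 of 77 and 11 of these 12 were above and none below, against 21.6% and 17.7%. The exception among the 12 was Rpl8, at 1404 and 1318 CPM in CCE, 2005 and 2040 CPM in J1 control, 2083 and 2192 CPM in labelled knockdown, and 1271 and 1331 CPM in those labelled Ccnb1. Its percentile was above J1, close to the top of the scale. The list took 0.794% to 1.903% of gene counts in J1, where processed pseudogenes took more counts.

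Outside the programs, translation and chaperone genes led. Eef1a1 and Eef2, the translation elongation factors, stood at 11190 and 9317 CPM and at 3346 and 3104 CPM. Hsp90ab1 and Hsp90aa1, cytosolic chaperone genes, stood at 7023 and 6692 CPM and at 2611 and 2676 CPM. Of the mitochondrial genome, mt-Co1 stood at 2925 and 2977 CPM. In contrast, mt-Co3, mt-Nd3 and mt-Nd4l had no count in any of the 8 libraries, J1 included, so these zeros are not particular to CCE. A small RNA gene model, Gm23935, was highest per kilobase, at 1752 and 2778 CPM. It was 1.59-fold higher in replicate 2, where n-R5-8s1, a ribosomal RNA gene, stood at 244 against 170 CPM and mt-Rnr2 at 597 against 421 CPM. These RNAs move between the replicates beside the ratios below, and their part was not tested.

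Listed genes that act in different phases of the cell cycle were expressed in both CCE libraries. The S phase genes Mcm7, Mcm3 and Mcm2, of the replicative helicase, stood at 846 and 732, 568 and 487, and 462 and 495 CPM, and Pcna, the sliding clamp, at 287 and 256 CPM. Of the mitotic genes, Cdc20, an activator of the anaphase-promoting complex, stood at 541 and 588 CPM. Ccnb1, which encodes cyclin B1, stood at 247 and 261 CPM and its partner Cdk1 at 153 and 140 CPM. In J1 these stood at 101 to 136 CPM and 54.2 to 82.7 CPM, so CCE held the highest values of both. The J1 libraries labelled Ccnb1 held 136.2 and 130.5 CPM of Ccnb1 against 134.8 and 129.3 CPM in J1 control. Beside the controls the gene thus did not stand out there, but the controls lack the knockdown label. Whether the level bears out the Ccnb1 label was not tested. The lowest J1 value, 101 CPM, was in a library labelled knockdown without Ccnb1, the group with the same knockdown label. Ccnb1 has 5 near-identical processed copies. Mki67, the proliferation marker, went the other way, at 234 and 244 CPM in CCE and 510 to 825 CPM in J1. D-type cyclins, which start the G1 phase program, were uneven: Ccnd3 stood at 165 and 197 CPM, Ccnd1 at 39.3 and 44.4 CPM, and Ccnd2 at 6.34 and 6.96 CPM. Ccnd1 stood at 91.5 to 349 CPM in J1, and 23.4% of its exonic bases overlap a gene on the other strand. Of the inhibitors, Cdkn1b stood at 63.5 and 62.7 CPM and Cdkn2a at 7.05 and 11.7 CPM. Of 60 genes, 30 ranked above all J1 libraries and 6 below, against 25.9% and 16.1% over all genes. Without genes with processed copies, 18 of 46 were above and 6 below, against 24.6% and 12.9%. By CPM 24 of 60 were above and 8 below, against 21.6% and 17.7%.

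The replicates were alike in rank but differed beyond counting noise. Spearman's rho of the percentiles across genes was 0.960, which describes these 2 libraries, since genes are not independent replicates. The squared difference between replicates was 24.4 times its Poisson expectation on average and 8.93 times by a median-based estimate, over 12997 genes with 100 counts or more in sum. Of these genes, 383 were more than 1.5-fold higher in replicate 2 (2.95%) and 475 in replicate 1 (3.65%), 6.6% in all. Intervals given with ratios are exact 95% intervals that cover counting error only, and the spread makes them too narrow.

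Of all the lists, the 2-cell-like state had the widest gap. All 7 members with enough counts were more than 1.5-fold higher in replicate 1, with a median ratio of 3.89 over replicate 2. Zscan4d stood at 26.2 and 6.73 CPM (ratio 3.90, interval 3.29 to 4.65), Zscan4c at 11.9 and 3.48 CPM, and Zscan4f at 7.84 and 2.07 CPM. Usp17lb, a deubiquitinase gene of the same state, stood at 8.60 and 1.53 CPM (ratio 5.64, interval 3.99 to 8.16). Members share sequence, as the Zscan4 windows above show, and all 12 have near-identical copies, so these ratios are not independent. Their sum was 92.4 and 25.1 CPM in CCE, 3.83 and 4.08 CPM in J1 control, 56.8 and 119 CPM in labelled knockdown, and 551 and 556 CPM in those labelled Ccnb1. The CCE libraries thus lay between the J1 control and the J1 libraries labelled Ccnb1. Duxf3, which encodes a transcription factor that activates this state, stood at 0.125 CPM and 0.

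Some matrix and endoderm genes were higher in replicate 2. Of 40 matrix genes with enough counts, 8 were more than 1.5-fold higher in replicate 2 and 2 in replicate 1. Over all genes with enough counts the shares were 2.95% and 3.65%. These 8 included Col4a1 (ratio 2.48, interval 2.39 to 2.58), Col4a2 (1.72, interval 1.652 to 1.797), Lamb1 (1.58, interval 1.503 to 1.652) and P4hb (1.67, interval 1.63 to 1.71). The RefSeq starts of Col4a1 and Col4a2 lie 21 bases apart on opposite strands of chromosome 8. Of 8 endoderm genes, 4 were more than 1.5-fold higher in replicate 2, among them Sox7, at 1.46 and 4.03 CPM, Foxa2, at 2.38 and 5.08 CPM, and Sox17, with a ratio of 1.51. Cxcr4 was higher in replicate 1. Of pluripotency genes, Klf4 (ratio 1.65), Nr5a2 (1.72) and Otx2 (1.82) were higher in replicate 2 and Lefty1 in replicate 1 (2.13). In the p53 program, only Plk3, a stress-responsive kinase gene, passed 1.5-fold, at 290 and 138 CPM, and in the cell cycle list only Cdkn2a did. Cdkn1a was 1.45-fold higher in replicate 1.

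Genes outside these lists also had large ratios. Derl3, of protein degradation at the endoplasmic reticulum, stood at 6.13 and 30.5 CPM (ratio 4.98, interval 4.17 to 5.98), and Bhlha15, a transcription factor gene of secretory cells, at 0.960 and 3.48 CPM. Nnat, an imprinted gene, stood at 8.72 and 26.9 CPM, and Prph, a neuronal intermediate filament gene, at 4.38 and 12.9 CPM. In the other direction, Gpnmb, a membrane glycoprotein gene, stood at 61.0 and 13.2 CPM (ratio 4.63, interval 4.11 to 5.23) and Patl2, an RNA-binding protein gene of oocytes, at 32.3 and 7.31 CPM. With 1 library on each side, none of these differences has a replicate check.

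**Figure D4:**
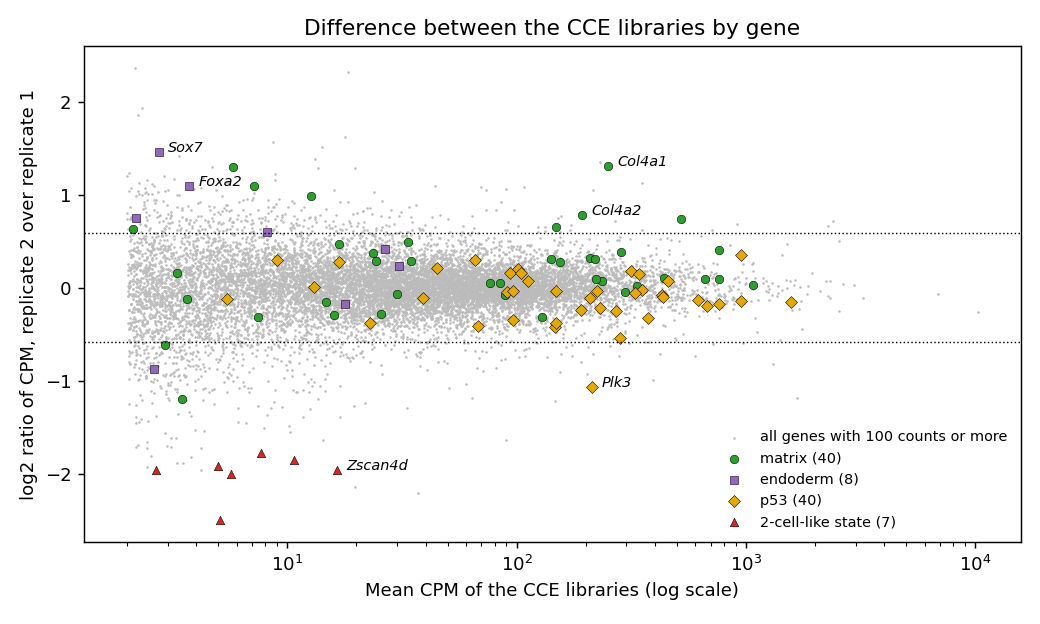
Each point is a gene at its mean CPM (log axis) and the log2 ratio of replicate 2 to replicate 1, grey for all 12997 genes with 100 counts or more and colored for 4 lists, and dotted lines mark 1.5-fold. The 7 genes of the 2-cell-like list (red triangles) lie below the lower line, and Col4a1, Col4a2, Sox7 and Foxa2 lie above the upper line.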

How the data were processed

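Poly-A RNA was sequenced, per the labels' protocols, as single-end reads of 100 bases or paired-end reads of 150 bases, and the layout of each library is not stated. For every library, the authors deposited 1 file of whole-number counts per Ensembl gene (8 files), with 5 summary rows that name no gene and were left out. These rows held 58.6% and 59.9% of the reads in the CCE files. Named in the submitters' processing notes, without roles, are HTSeq 0.11.2, Bowtie2 2.3.4.3, the build mm9, edgeR 3.26.8 and SAMtools 1.9, and strand handling is not given in the sources used here. By gene ID, symbols came from a table of mouse gene names, and exon lengths and biotypes from GENCODE M21, each for 32621 of 37311 genes, and no coordinates of that annotation are printed. Promoter windows are RefSeq's, on GRCm38.p6, matched by symbol, and the members and motifs shown were picked with values known.

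CPM is counts over all gene counts. Percentiles rank counts per kilobase of merged exons. Replicate ratios use genes with 100 counts or more in sum and a threshold of 1.5-fold. A gene is outside J1 when both CCE percentiles lie above, or both below, all 6 J1 libraries. A gene with CCE counts but no count in some J1 library cannot be below. A processed copy here is a pseudogene transcript that BLAST 2.17.0 matched to the gene over 300 bases or more with 90% identity or more. Pseudogenes of every type were searched, so a copy need not be processed or match the whole gene. Shorter matches were not counted, so a gene listed without a copy, above all a short gene, may still have one. No test was made: 2 against 6 libraries cannot reach a two-sided permutation p below 0.0714. Genes were named by a written rule: fixed genes, the 3 highest and lowest members of each list, members with no count, the top 15 genes, the 5 largest ratios and the 3 members farthest outside J1. Some genes that the rule names are not reported here. Further list members were named for their role after their values were seen. The members, the lists and the rule were chosen with earlier results of these data known. The ratio and rank steps were tested on simulated counts with Poisson noise only. That test does not cover the wider spread seen between the CCE replicates. Sequencing reads carry no molecular identifiers, so intervals and limits cover counting error only. Python 3.11.15 and R 4.3.3 with edgeR 4.0.16 (TMM factors) were used.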

Additional observations from a re-analysis of the deposited data

Results flagged for a closer look

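Reads outside any gene made up 48.5% of the reads in the file of CCE replicate 1 and 49.5% in that of replicate 2, above the highest J1 control value of 12.2%. The bases of these shares are unlike: unaligned reads and reads of low alignment quality were 0% in CCE. They were 15.65% to 15.89% and 33.53% to 33.7% in J1 control. The summed reads per base of 43 genes nested in exons of the other strand were 1.18 times those of their partners in replicate 1 and 1.26 times in replicate 2, above the highest J1 control value of 0.162. Reads outside any gene enter no gene level reported above, while reads on the nested genes are part of the gene counts. Both signals were picked out because they exceed the J1 controls. Their part in the ranks beside J1 was not tested.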

How the results depend on the processing

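Rank medians rest on the set of genes ranked. In the order pluripotency, p53, lineage, matrix, ribosome and cell cycle, the median percentiles over both CCE libraries were 96.2, 96.0, 60.4, 81.5, 99.7 and 92.2. Among protein-coding genes only they were 94.1, 93.9, 42.5, 71.5, 99.6 and 88.0, and among genes with 10 counts or more in both CCE libraries 92.6, 91.4, 26.8, 66.3, 99.4 and 83.2, since low genes then leave the ranking. Without genes whose exons overlap a gene on the other strand they were 96.7, 97.6, 64.3, 84.1, 99.8 and 94.1. Ranked by CPM with no length, pluripotency was at 95.5, p53 at 96.35, ribosome at 99.5 and cell cycle at 94.9. With the length of the longest transcript, pluripotency was at 94.9, p53 at 96.7, matrix at 80.45, ribosome at 99.8 and cell cycle at 92.65. Without replicate 1 or 2 in turn, the medians ranged from 96.1 to 96.2, 95.8 to 96.2, 58.5 to 62.2, 81.3 to 81.7, 99.7 to 99.7 and 92.2 to 92.3. At a floor of 5 CPM, 18 lineage genes passed in place of 28. Past 2-fold, 175 genes differed between replicates in place of 858, and 2025 with genes of 20 counts or more. Genes outside J1 numbered 6264, of which 61.7% were above, against 51.0% among protein-coding genes only and 65.6% among those without a processed copy. By CPM in place of percentiles the number was 5847, and with the mean of 1 CPM taken over the J1 libraries alone 5972. These last 3 settings were chosen after seeing the data. Without the 2 libraries of J1 labelled knockdown the number was 9534, with fewer libraries to lie outside of. No paired analysis was possible because no result comes from a test and no CCE control shares the replicate numbers.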
